A study of Danio rerio with 2 samples.

Results

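Elongated spermatids (SPT-e) are the haploid germ cells that follow round spermatids (SPT-r) in the zebrafish testis. The 426 cells described here carried the label for elongated spermatids in the published cell annotation, out of 1999 annotated cells of replicate 1. The other annotated cells were 308 undifferentiated type A spermatogonia (SPG-Aun), 292 differentiated type A spermatogonia (SPG-Ad), 178 type B spermatogonia (SPG-B), 438 primary spermatocytes (SPC-I), 135 secondary spermatocytes (SPC-II) and 222 SPT-r. Poly(A) RNA of single cells was measured in testes of adult zebrafish aged 6 months, as 2 droplet libraries called replicate 1 and replicate 2. No treatment or mutation was compared: one label calls the fish wild type, another calls them transgenic, and the labels do not say how many fish went into a library. The testes had been dissociated with trypsin, and the study had removed cell clusters with few transcripts before annotation, so the share of SPT-e among all germ cells was not measured.

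During spermiogenesis the round haploid cell builds a flagellum, condenses its nucleus and discards most of its cytoplasm. Transcription declines in this period, and many of the proteins needed later are made from messengers stored earlier. Zebrafish sperm have a flagellum but no acrosome.

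The measure was the UMI count, the number of distinct captured RNA molecules of a gene. Levels are given as CPM, the UMIs of a gene divided by all UMIs of its stage and scaled in the usual way, which is a share of the RNA, or as UMIs per cell. Because all stages of replicate 1 came from 1 library, and the stages had been defined by clustering the same cells, no difference between stages was tested. All values below describe these libraries, and intervals are 95% exact intervals that cover counting error only. Replicate 2 had no annotation at hand, and its cells were given a stage by a vote of the 15 most similar annotated cells, which placed 817 of 4963 voted cells in SPT-e. The vote used the counts of the same genes, so replicate 2 is a check and not independent evidence. When annotated cells were hidden and voted on, 389 of the 426 SPT-e (91.3%) came back as SPT-e and 25 were placed in SPT-r. The share of the RNA and the number of transcripts per cell are different quantities, and a gene can have a higher share in a cell that holds fewer copies of it.

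Replicate 1 held 3984 barcodes and 34153824 UMIs, and replicate 2 held 5996 barcodes and 52845050 UMIs. Stage sums in replicate 1 rested on 693732 UMIs for SPT-e, against 1885267 UMIs for SPT-r, so that 1 UMI was worth 1.44 CPM in SPT-e. The 2 libraries shared 8 barcodes. Among the 426 SPT-e, 7 cells had more than 5000 UMIs, and these 7 held 10.3% of the UMIs of the stage, with 21824 UMIs in the largest. A doublet caller marked 14 of the 426 cells, among them 5 of those 7. In replicate 2, 5 of 817 voted SPT-e had more than 5000 UMIs and held 2.74% of the UMIs. The list values that moved most are given with and without them.

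The 3 marker genes of the stage were checked first. edrf1 had been used in the annotation to tell SPT-e from SPT-r, so its level there is fixed by the label and no check of it. The study does not list the genes used for clustering. If tssk6 and ckba were among them, their levels are no independent check either. tssk6, a testis-specific serine kinase needed in mice for compaction of sperm chromatin, had 261 UMIs in SPT-e (376 CPM, interval 332 to 425), against 1 UMI in SPT-r (0.53 CPM). The ratio of its CPM was 709 with an interval of 126 to 28121, since it rested on a single UMI in SPT-r. In replicate 2 it had 568 CPM in SPT-e, against 2.16 CPM in SPT-r. No earlier stage of replicate 1 exceeded 3.70 CPM. edrf1, named for a role in erythroid differentiation, had 826 CPM in SPT-e (interval 760 to 896), against 20.7 CPM in SPT-r, and 863 CPM against 31.7 CPM in replicate 2. ckba, a brain-type creatine kinase that buffers ATP, separated the stage from spermatogonia rather than from SPT-r. It had 9570.0 CPM in SPT-e, against 7077 CPM in SPT-r, 3823 CPM in SPC-II and 117 CPM in SPG-Aun. After each cell was thinned to 500 UMIs, tssk6 had a UMI in 19.7% of SPT-e of replicate 1, against no SPT-r and 0.32% of SPG-Aun. edrf1 had a UMI in 32.4% of SPT-e, against 2.70% of SPT-r and 0.97% of SPG-Aun. Without thinning these shares were 34.0% for tssk6 and 56.1% for edrf1 in SPT-e, against 0.45% and 15.3% in SPT-r. Of the 3, tssk6 had the largest ratio between SPT-e and SPT-r, and ckba did not separate these stages.

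SPT-e held far fewer transcripts than any other stage. The median was 1374 UMIs per cell in SPT-e (quartiles 839 to 1982, lowest 501, highest 21824), against 7998 UMIs in SPT-r. It was 788 genes per cell in SPT-e, against 2932 genes in SPT-r. In replicate 2 the median was 1305 UMIs per cell in SPT-e, against 8757 UMIs in SPT-r. The lowest SPT-e had 501 UMIs in both replicates, and no cell of any stage had fewer. Whether SPT-e with fewer UMIs were missing from these medians was not tested. The mean UMIs per cell of SPT-e was 0.192 times that of SPT-r in replicate 1 and 0.150 times in replicate 2. The other stages of replicate 1 had medians of 6349 (SPC-I) to 13208 (SPG-Ad) UMIs per cell. The quartiles of SPT-e did not overlap those of any other stage in replicate 1. In replicate 2 the lower quartile of SPG-Aun, 1669 UMIs, fell within the quartiles of SPT-e, 843 to 1863 UMIs.

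**Figure D1:**
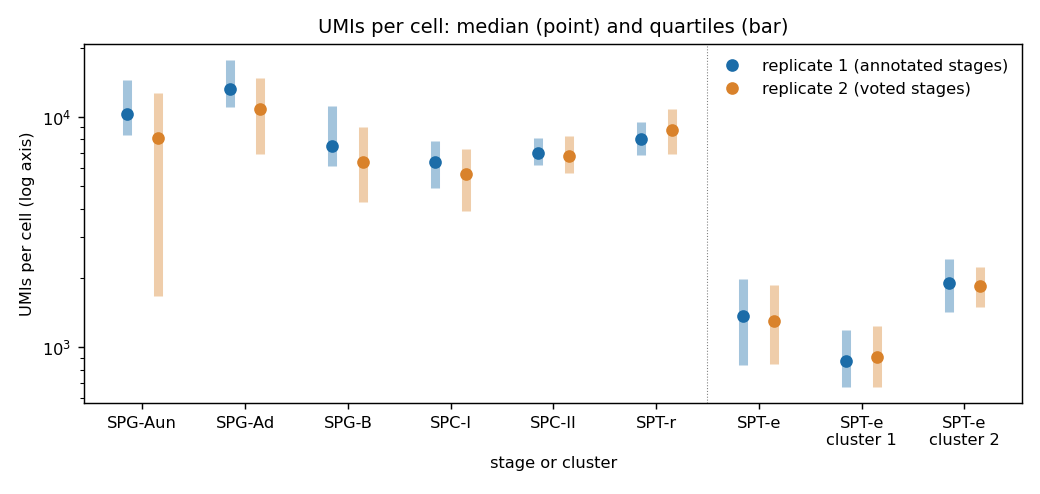
UMIs per cell (log axis) by stage, with SPT-e also split into its 2 clusters. Points are medians and bars run from the lower to the upper quartile, for annotated stages of replicate 1 and voted stages of replicate 2. SPT-e had a median of 1374 UMIs in replicate 1, and its cluster 1 (869) lay below its cluster 2 (1896).

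The transcriptome left in these cells was not dominated by a few genes. The 10 most abundant genes held 6.85% of the UMIs in SPT-e, against 6.65% in SPT-r, and the top 100 held 27.0% in SPT-e, against 22.0% in SPT-r and 38.4% in SPG-Aun. Thinned to 500 UMIs, an SPT-e showed a median of 378 genes, against 413 genes in an SPT-r. UMIs of 14325 genes were seen in SPT-e in all.

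Nearly all of the most abundant SPT-e transcripts were abundant in SPT-r already. ckba, described above, was among them. pvalb6, a parvalbumin that binds calcium, had 6615 CPM in SPT-e, against 4205 CPM in SPT-r. Most of the others belong to the flagellum. pierce1, which in mice helps to attach dynein arms to the doublet microtubules, had 5379.6 CPM in SPT-e, against 3956 CPM in SPT-r. hoatz, needed in mice for cilia and flagella, had 4003 CPM in SPT-e, against 2913 CPM in SPT-r. tuba7l, an alpha-tubulin, had 4849 CPM in SPT-e, against 5965 CPM in SPT-r, and was thus on the other side. cfap299 had 3434 CPM in SPT-e, against 2316 CPM in SPT-r, and cetn4, a centrin of the centriole, had 3424 CPM in SPT-e, against 2817 CPM in SPT-r. hsp90ab1, a cytosolic chaperone, had 5704 CPM in SPT-e, against 8252 CPM in SPT-r. The mitochondrially encoded oxidase subunits mt-co2 and mt-co3 had 3535 and 3354 CPM in SPT-e, against 2782 and 2359 CPM in SPT-r. zgc:55461, si:ch73-111k22.3, rarres3l and ENSDARG00000080337, an identifier with no symbol, were also among the 15 most abundant genes, at 3932 to 7045 CPM in SPT-e. None of these named genes differed by 2-fold or more between SPT-e and SPT-r in either replicate. In UMIs per cell they were all lower in SPT-e, with ckba at 15.6 UMIs per SPT-e, against 60.1 UMIs per SPT-r.

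Against the mean of the other 6 stages, 967 of 6179 genes with a mean of at least 20 CPM were at least 2-fold higher in SPT-e (15.6%) and 2919 were at least 2-fold lower (47.2%). A fold here is the ratio of CPM after 5 CPM is added to both sides. Of the 967 genes, 831 had a CPM in SPT-r at most 2-fold below that of SPT-e, and 321 had one in SPC-II. SPT-e was the stage of highest CPM for 685 of them and SPT-r for 278.

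Against SPT-r alone, 328 of 5034 genes were at least 2-fold higher in SPT-e (6.52%) and 976 were at least 2-fold lower (19.4%). The median log2 fold over all 5034 genes was -0.33. Of these genes, 212 were at least 2-fold higher and 684 at least 2-fold lower in both replicates, which was 64.6% and 70.1% of the genes of replicate 1, and 68.2% and 53.4% of those of replicate 2. None was at least 2-fold in opposite directions. The balance rested on the scaling: higher genes were 25.2% of those past 2-fold with CPM, 36.5% with edgeR's TMM factors, which moved the median of all genes to -0.18, and 67.3% with DESeq2's size factors, which moved it to 0.14. The lists below are therefore read against the median of all genes and not against 0.

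**Figure D2:**
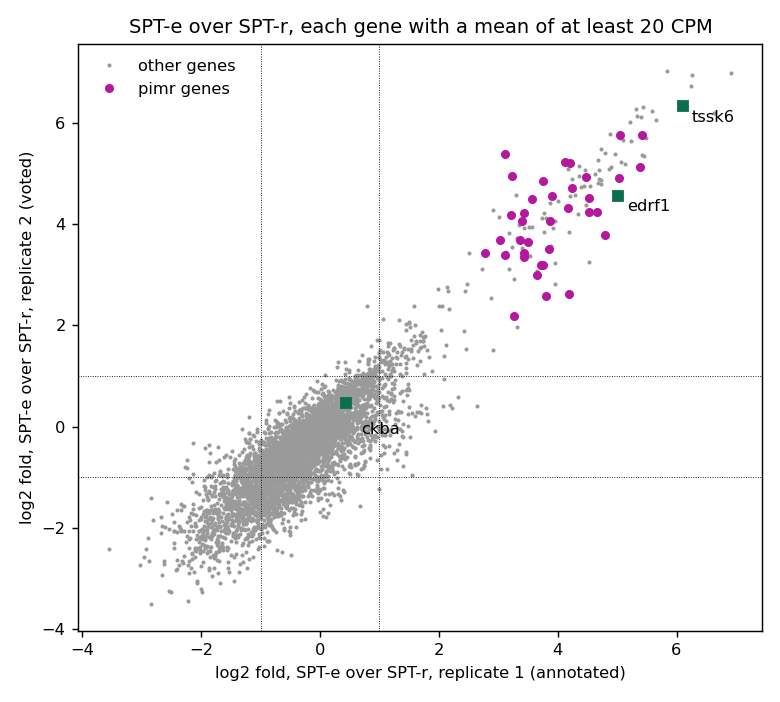
Log2 fold of SPT-e over SPT-r in replicate 1 (horizontal) and in replicate 2 with voted stages (vertical), 1 point per gene with a mean of at least 20 CPM in replicate 1. Dotted lines mark 2-fold, purple points are pimr genes and green squares mark tssk6 (6.11 and 6.32), edrf1 (5.02 and 4.56) and ckba (0.44 and 0.46). The 36 pimr genes that passed this filter lie between 2.78 and 5.42 in replicate 1. Of these, 30 had 3 or fewer UMIs in SPT-r and so passed through SPT-e. The 12 copies lower in SPT-e fell below the filter and are not shown.

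Several of the genes with the largest folds over SPT-r are known only by clone names. si:dkey-151m22.8 had 859 CPM in SPT-e, against 2.12 CPM in SPT-r, and 1165 CPM against 4.33 CPM in replicate 2, the largest log2 fold of the rule (6.92). si:dkey-234d14.2 had 1108 CPM in SPT-e, against 9.55 CPM in SPT-r. si:ch73-367j5.3 was the most abundant of them, with 2076 CPM in SPT-e, against 31.3 CPM in SPT-r, and 2590.2 CPM against 14.9 CPM in replicate 2. Of the 15 genes with the largest fold that were also at least 2-fold higher in replicate 2, 3 had a gene name, tssk6, pimr93 and pimr138, 6 had a clone name and 6 had an identifier only, such as ENSDARG00000117812 and ENSDARG00000089959. Their SPT-r levels ran up to 31.3 CPM, and for ENSDARG00000117721 no UMI was seen in SPT-r of replicate 1. si:ch73-367j5.3 had 59 UMIs in SPT-r of replicate 1, and the other 14 genes had 18 UMIs or fewer. Among all 5034 genes tested against SPT-r, 485 had clone names, 123 had no symbol, 36 were pimr genes and 4390 had another name.

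Genes lower in SPT-e showed smaller folds. tusc2 (ENSDARG00000099817, 1 of several genes with this symbol), the relative of a human tumour suppressor, had 56.2 CPM in SPT-e (39 UMIs), against 432 CPM in SPT-r. hmox1, the inducible heme oxygenase, had 24.5 CPM in SPT-e (17 UMIs), against 213 CPM in SPT-r, and 25.6 CPM against 186 CPM in replicate 2. phlda2, which holds a pleckstrin homology-like domain, had 6 UMIs in SPT-e, against 192 UMIs in SPT-r, and fbxw4, an F-box protein, had 5.77 CPM in SPT-e, against 83.3 CPM in SPT-r. pde4ca, a cAMP phosphodiesterase, had 8.65 CPM in SPT-e, against 81.7 CPM in SPT-r. The others of the 10 (si:dkey-27i16.2, tsr3, trim35-1, zgc:77784 and dtex3lb.1) had 1 to 4 UMIs in SPT-e of replicate 1. With so few UMIs their SPT-e level was barely resolved at this depth.

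The pimr genes stood out among the genes high in SPT-e. They are named for their relation to the Pim kinases, serine/threonine kinases that promote growth and survival in mammals, and zebrafish carries many near-identical copies of them. The family was singled out after its values were seen. Since reads that match several copies equally are not assigned by the counting, the level of a single copy is uncertain, and the sum over the family is the safer value. The files held 180 pimr genes, of which 120 had a UMI in SPT-e or SPT-r of replicate 1. Summed over all 180, they took 0.497% of the UMIs of SPT-e (3446 UMIs), against 0.0182% in SPT-r (343 UMIs). In replicate 2 they took 0.619% in SPT-e, against 0.0161% in SPT-r. The other 5 stages lay between 0.0138% and 0.0203% in replicate 1 and between 0.0193% and 0.0222% in replicate 2, so that all stages before SPT-e lay in a narrow low range. Among the 120 genes seen, the CPM was higher in SPT-e for 108 and lower for 12. Of all 180, 112 had a UMI in SPT-e and 66 in SPT-r of replicate 1. Copies seen in SPT-e alone could only count as higher. No level filter was applied to the 120 genes, and 1 UMI was worth 1.44 CPM in SPT-e but 0.53 CPM in SPT-r. A copy with 1 UMI in each stage thus also counted as higher. The same share over all genes is not given here, so these counts are a description only.

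**Figure D3:**
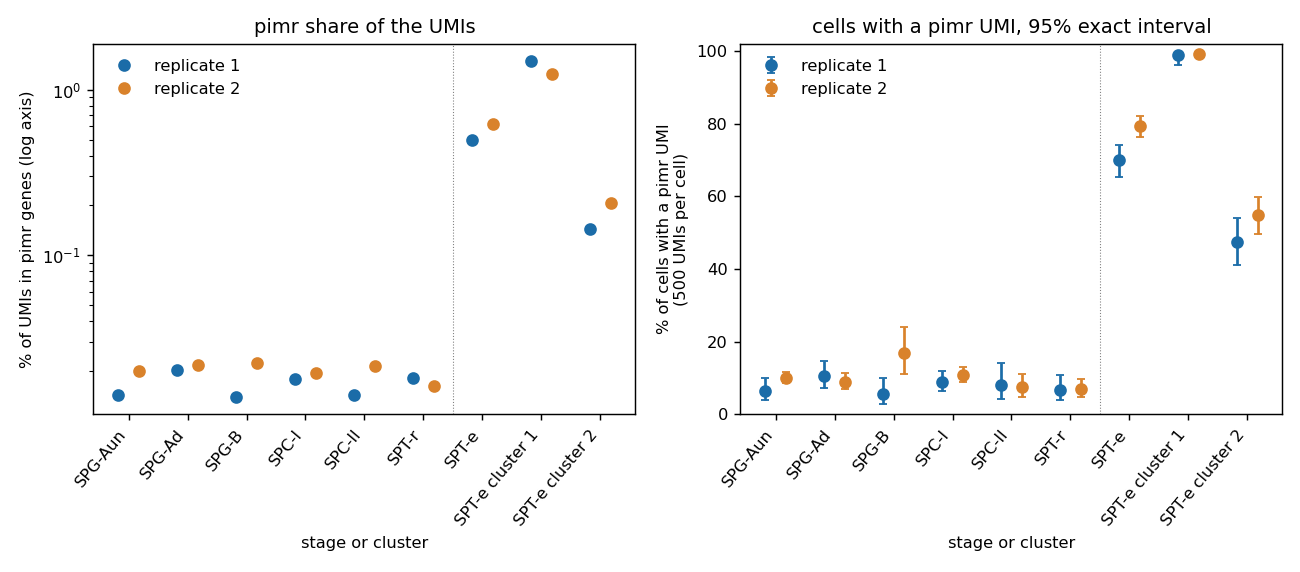
Left, the share of all UMIs that fell in the 180 pimr genes (log axis), by stage and by SPT-e cluster. Right, the share of cells with a pimr UMI after thinning each cell to 500 UMIs, with 95% exact intervals. Both replicates are shown; SPT-e reached 70.0% of cells in replicate 1, and its cluster 1 reached 98.9%.

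The pimr signal was spread over many copies of the family and was seen in most SPT-e, but unevenly. In replicate 1, cluster 1 of the SPT-e held 14.6 pimr UMIs per cell, against 3.07 in cluster 2. In replicate 2, with clusters given by vote, these values were 12.9 and 3.94. The most abundant copy held 10.3% of the family's UMIs in SPT-e. After thinning to 500 UMIs, 70.0% of SPT-e (interval 65.4 to 74.3) had a pimr UMI, against 6.76% of SPT-r (3.83 to 10.9) and 6.49% of SPG-Aun. In replicate 2 the shares were 79.3% of SPT-e, against 6.88% of SPT-r. Unthinned shares were 88.3% of SPT-e, against 70.3% of SPT-r, whose cells were deeper. Per cell, SPT-e held 8.09 pimr UMIs, against 1.55 in SPT-r, although an SPT-e held fewer UMIs in all. Without the 7 SPT-e over 5000 UMIs the share of UMIs was 0.551%, so it did not come from those cells.

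Several single copies gave the same picture, but 12 of the 120 seen were lower in SPT-e. Among these, pimr47 had 6 UMIs in SPT-e, against 33 UMIs in SPT-r, and 7 against 27 UMIs in replicate 2. pimr138 had 512 CPM in SPT-e, against 7.43 CPM in SPT-r, and 454 CPM against 8.18 CPM in replicate 2. pimr93 had 460 CPM in SPT-e (interval 411 to 513), against 5.83 CPM in SPT-r, and 409 CPM against 2.65 CPM in replicate 2. pimr125 had 122 UMIs in SPT-e, against 1 UMI in SPT-r, and 170 UMIs against 0 in replicate 2. Thus 36 copies passed the level filter, 30 of them with 3 or fewer UMIs in SPT-r, which means that they passed through SPT-e. The kinases the family is named after were not part of it: pim3 had 15.9 CPM in SPT-e, against 100.3 CPM in SPT-r, pim2 had 30.3 CPM against 84.9 CPM, and pim1 had 27.4 CPM against 24.9 CPM.

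A higher CPM in a cell with less RNA can still be fewer molecules, so UMIs per cell were compared as well. Of 7863 genes with at least 20 UMIs over both stages, 181 (2.3%) had more UMIs per cell in SPT-e than in SPT-r, and 148 of these at least 2-fold more. The median gene had 0.139 times as many UMIs per cell in SPT-e as in SPT-r. In replicate 2, 219 of 10121 genes had more UMIs per SPT-e, and 150 genes did so in both. Of these 150, 47 were pimr genes, 64 had clone names, 27 had no symbol, and 12 had another name. Of the 7863 genes compared, 57 were pimr genes, 836 had clone names, 210 had no symbol and 6760 had another name. Of the 57 pimr genes, 41 had 3 or fewer UMIs in SPT-r and so met the minimum of 20 UMIs through SPT-e, which fixed their direction.

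tssk6 had the largest ratio among genes with at least 100 UMIs in SPT-e and at least 1 in SPT-r: 0.613 UMIs per SPT-e, against 0.0045 per SPT-r, a ratio of 136 (interval 24.2 to 5393), and 39.4 in replicate 2. edrf1, a marker outside the 10 largest ratios, had 1.35 UMIs per SPT-e, against 0.176 per SPT-r. Its ratio was 7.66 (5.53 to 10.9) in replicate 1 and 4.09 in replicate 2. Other genes among the 10 largest ratios were si:dkey-151m22.8, si:ch211-230g14.3, si:dkey-34d22.3, si:dkey-199f5.4, pimr125 and 3 with no symbol. Other named genes with more UMIs per cell, chosen after their values were seen, were few. styk1b, a relative of a receptor-like kinase, had 0.948 UMIs per SPT-e, against 0.153 per SPT-r, and 0.625 against 0.103 in replicate 2. nkd3l, a relative of the Naked cuticle inhibitors of Wnt signalling, had 0.249 UMIs per SPT-e, against 0.0225 per SPT-r. fos, an immediate early transcription factor, had 0.148 UMIs per SPT-e (63 UMIs), against 0.0811 per SPT-r (18 UMIs), and 0.174 against 0.0917 in replicate 2. mcm2, a subunit of the replicative helicase, had 0.115 UMIs per SPT-e, against 0.0856 per SPT-r, but 0.0514 against 0.211 in replicate 2. In the first 3 of these the direction was the same in both replicates, and in mcm2 it was not.

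The gene lists are given next, grouped by part or process. Their counts stand beside 6.52% of all genes at least 2-fold higher and 19.4% at least 2-fold lower, and a share near these is no result about a list. The axoneme, the microtubule core of the flagellum, is built from doublet microtubules with proteins inside them, dynein motors, radial spokes and a central pair. Among 35 CFAP genes (cilia and flagella associated proteins) tested against SPT-r, 1 was at least 2-fold higher and 1 at least 2-fold lower, and the median log2 fold was 0.16, beside -0.33 for all genes. Without the 7 SPT-e over 5000 UMIs, and also in replicate 2, 2 were higher. As a group they took 3.40% of the UMIs of SPT-e, against 2.55% in SPT-r and 0.0540% in SPG-Aun. Replicate 2 gave 3.78% in SPT-e, against 2.43% in SPT-r. cfap77 had 2769 CPM in SPT-e, against 1400 CPM in SPT-r, and cfap20 had 2788 CPM against 1591 CPM. cfap73 was low, with 11.5 CPM in SPT-e (8 UMIs), against 67.4 CPM in SPT-r.

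The 21 tested tektins and microtubule inner proteins, which line the inside of the doublets, had a median of 0.38 in replicate 1 and 0.54 in replicate 2. Of these, 1 was at least 2-fold higher and 3 were at least 2-fold lower in replicate 1, while 4 were higher and 3 lower both without the 7 cells and in replicate 2. saxo2, which stabilises axonemal microtubules, had 817 CPM in SPT-e, against 370 CPM in SPT-r, and enkur had 3173 CPM against 1681 CPM. tekt1 had 2863 CPM in SPT-e, against 2058 CPM in SPT-r. mdm1, a centriole protein, was on the other side with 138 CPM in SPT-e, against 286 CPM in SPT-r. The 20 radial spoke and central pair genes had a median of 0.18, with none at least 2-fold higher and 2 at least 2-fold lower. ropn1l, a fibrous sheath and radial spoke protein, had 2994 CPM in SPT-e, against 1979 CPM in SPT-r. hydin, of the central pair, had 169 CPM in SPT-e, against 338 CPM in SPT-r.

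Of 38 axonemal dynein genes, 1 was at least 2-fold higher and 2 were at least 2-fold lower, with a median of -0.15 (2 higher without the 7 cells), and the list took 1.83% of the UMIs in SPT-e as in SPT-r. The one higher was dnah9, an outer arm heavy chain, with 381 CPM in SPT-e, against 124 CPM in SPT-r, and 327 CPM against 91.6 CPM in replicate 2. dnah3, an inner arm heavy chain, had 23.1 CPM in SPT-e (16 UMIs), against 65.8 CPM in SPT-r. dnali1, an inner arm light intermediate chain, was the most abundant, with 2683 CPM in SPT-e, against 1851 CPM in SPT-r.

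Genes that transport material into a growing flagellum are another list. Of 28 intraflagellar transport and BBSome genes, 1 was at least 2-fold higher and 7 at least 2-fold lower, with a median of -0.51 in both replicates, beside -0.33 and -0.43 for all genes. In replicate 2, 9 of 27 were lower, beside 26.0% of all genes, so the list stood a little below the average gene. Their share of the UMIs was 0.874% in SPT-e, against 1.11% in SPT-r. bbs5 had 14.4 CPM in SPT-e (10 UMIs), against 84.9 CPM in SPT-r, and ift20, which carries membrane proteins from the Golgi, had 63.4 CPM in SPT-e, against 249.8 CPM in SPT-r. ift27 was an exception, with 1191 CPM in SPT-e, against 934 CPM in SPT-r. The list thus peaked in SPT-r, whereas the CFAP, tektin and radial spoke shares were highest in SPT-e.

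**Figure D4:**
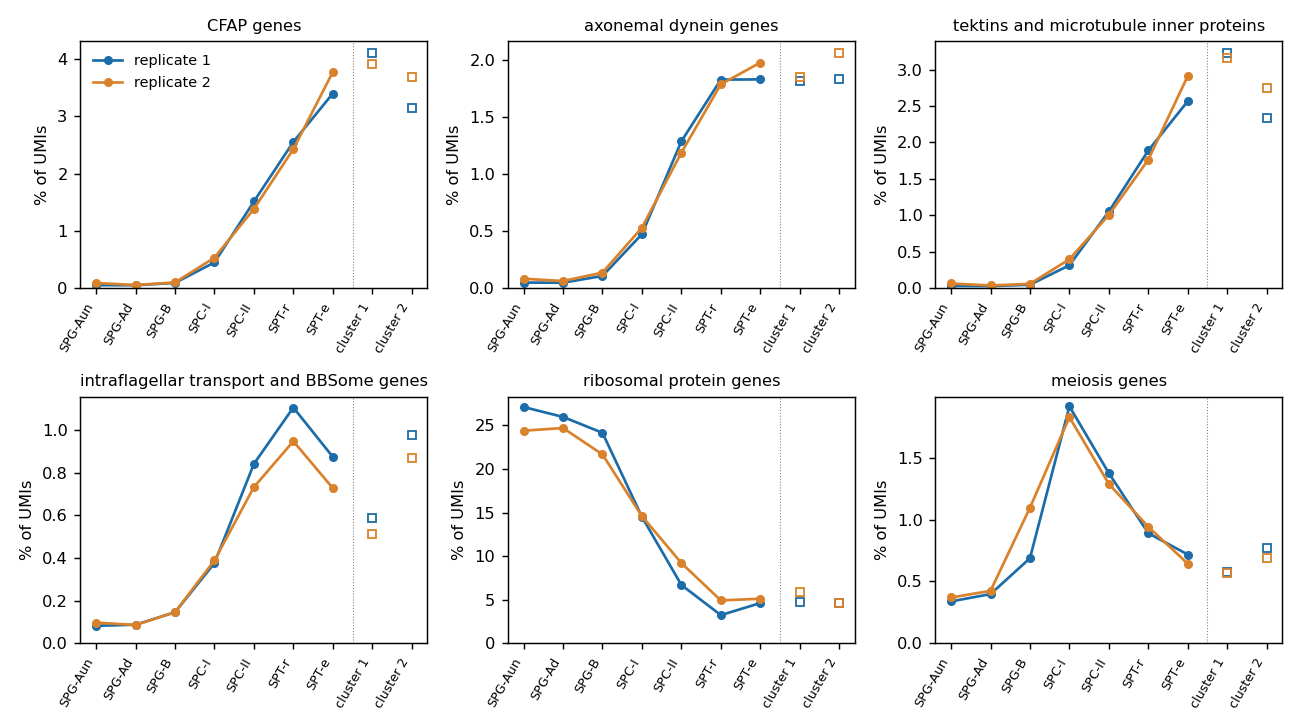
Share of all UMIs (%) taken by 6 gene lists across the stages, in developmental order, with the 2 SPT-e clusters as open squares, for annotated replicate 1 and voted replicate 2. CFAP genes took 3.40% in SPT-e of replicate 1, against 2.55% in SPT-r, and intraflagellar transport genes 0.874% against 1.11%.

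Of 38 tubulins and tubulin modifiers, none was at least 2-fold higher and 9 were at least 2-fold lower, at a median of -0.34, but 3 were higher without the 7 cells. tubb4b, a beta-tubulin of cilia and of many other cells, had 578 CPM in SPT-e, against 1433 CPM in SPT-r. tpgs1, a subunit of the tubulin polyglutamylase, had 2293 CPM in SPT-e, against 1514 CPM in SPT-r. Among 12 outer dense fibre and fibrous sheath genes, a list that holds tssk6 as a sperm tail kinase, 1 was higher (tssk6) and 1 lower (akap9, a centrosomal scaffold, with 9 UMIs in SPT-e). The list was fixed with the marker in it, so its higher member is no new result.

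The 25 tested sperm kinases, phosphatases and motility signalling genes had the lowest median in replicate 1 among lists with at least 5 genes tested, -0.77, and one of -0.83 in replicate 2. Again tssk6 was the 1 gene at least 2-fold higher, while 8 were at least 2-fold lower. cngk, the potassium channel of zebrafish sperm, had 512 CPM in SPT-e, against 1093 CPM in SPT-r. ppp1r42, a regulatory subunit of a protein phosphatase and a marker of SPT-r, had 448 CPM in SPT-e, against 964 CPM in SPT-r. The 4 tested sperm-egg fusion genes were within 2-fold: spaca6 had 407 CPM in SPT-e, against 245 CPM in SPT-r, and dcst2 had 428 CPM against 576 CPM. Of the 6 genes named for the acrosome, 2 were tested, spaca6 and spaca9, both with levels above those of SPT-r.

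For the energy supply, none of 8 creatine and adenylate kinases reached 2-fold. None of 21 glycolysis genes was at least 2-fold higher and 2 were at least 2-fold lower. The glycolysis genes had a median of -0.29, just above that of all genes, but -0.54 both without the 7 cells and in replicate 2, below that of all genes. eno4, an enolase of sperm, had 725 CPM in SPT-e, against 782 CPM in SPT-r, and ldhb, a lactate dehydrogenase subunit, had 427 CPM in SPT-e, against 212 CPM in SPT-r. Of 90 nuclear genes of oxidative phosphorylation, 2 were higher and 4 lower, at a median of -0.08, and none was higher without the 7 cells or in replicate 2, where 8 were lower. The mitochondrially encoded genes had a median of 0.38 (10 tested, none at least 2-fold), and mt-co1 had 2179.5 CPM in SPT-e, against 1606 CPM in SPT-r.

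For the nucleus, 12 core and linker histones were tested, with 1 at least 2-fold higher and a median of -0.07. The higher one was h2ax, with 22 UMIs in SPT-e, and no histone was higher without the 7 cells. h2az2b, a variant of histone H2A.Z, had 1563 CPM in SPT-e, against 1765 CPM in SPT-r and 4972 CPM in SPC-II. Of 49 chromatin modifiers, 3 were higher and 12 lower, with a median of -0.54 in replicate 1 and -0.85 in replicate 2. Without the 7 cells 18 of 45 were lower, at a median of -0.77, and in replicate 2 none of 45 was higher and 19 were lower. brdt, a testis bromodomain protein that in mice compacts acetylated chromatin, had 402 CPM in SPT-e, against 509 CPM in SPT-r. kat5b, an acetyltransferase, had 20.2 CPM in SPT-e (14 UMIs), against 90.2 CPM in SPT-r. Of 24 manchette and nuclear shaping genes, 2 were higher and 1 lower, at a median of 0.08. The higher ones were spag9a, with log2 folds of 1.16 in replicate 1 and 0.50 in replicate 2, and banf1, which binds chromatin to the nuclear envelope, with 1.16 and -0.39. The lower one was kif3a, a motor subunit, with 47.6 CPM in SPT-e, against 184 CPM in SPT-r. meig1, which in mice acts at the manchette, had 1937 CPM in SPT-e, against 1584 CPM in SPT-r.

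Protein turnover genes differed among themselves. In the ubiquitin and SUMO list 3 of 77 genes were at least 2-fold higher (ube2h, rnf4 and rnf17, a tudor protein of the piRNA pathway) and 16 were lower. rnf17 had a log2 fold of 1.80 in replicate 1 but 0.26 in replicate 2. ube2h, a ubiquitin-conjugating enzyme, had 2433 CPM in SPT-e, against 913 CPM in SPT-r, and 2605 CPM against 901 CPM in replicate 2. rnf4, a ligase that recognises SUMO chains, had 2440.4 CPM in SPT-e, against 1050.2 CPM in SPT-r. The list's median was -0.33, that of all genes, and -0.47 without the 7 cells, beside -0.38. Of 48 proteasome genes none was higher and 6 were lower, at a median of -0.43, among them psmd12 with 114 CPM in SPT-e, against 326 CPM in SPT-r. Of 22 autophagy genes none was higher and 5 were lower, while gabarapa, which coats autophagosomes, had 1418 CPM in SPT-e, against 907 CPM in SPT-r.

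For gene expression itself, none of 45 genes of RNA polymerase II and the general transcription factors was at least 2-fold higher and 8 were at least 2-fold lower, at a median of -0.40, a share below the 19.4% of all genes. In replicate 2, 15 of 45 were lower, beside 26.0% of all genes. Their share of the UMIs was 0.457% in SPT-e, against 0.567% in SPT-r. Of 66 translation and mRNA storage genes, 1 was higher and 7 were lower. larp1b, an RNA-binding protein and a marker of SPT-r, had 271 CPM in SPT-e, against 899 CPM in SPT-r, a log2 fold of -1.71, and of -2.88 in replicate 2. Among 18 transcription factors of meiosis and spermiogenesis, 1 was higher and 6 lower. The higher one was rfx3, a regulator of cilia genes, with 1111 CPM in SPT-e, against 497 CPM in SPT-r, and 1235 CPM against 409 CPM in replicate 2. foxj1b, another regulator of motile cilia, had 33.2 CPM in SPT-e, against 133 CPM in SPT-r, and cremb, a relative of the mouse spermatid factor CREM, had 2420.2 CPM against 2565 CPM.

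**Figure D5:**
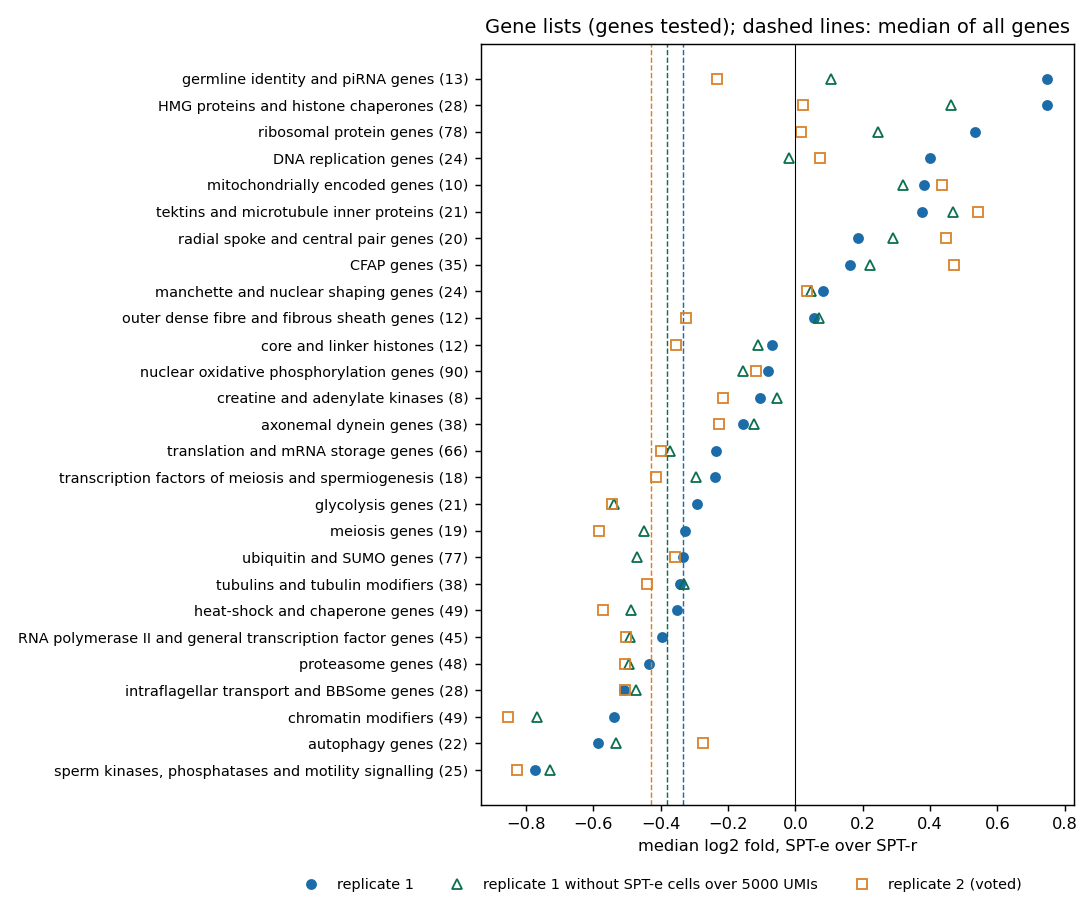
Median log2 fold of SPT-e over SPT-r for the 27 gene lists with at least 5 genes tested (number in brackets), for replicate 1, for replicate 1 without SPT-e over 5000 UMIs and for voted replicate 2. Dashed lines mark the median of all genes in each, -0.33, -0.38 and -0.43, so a list right of its line stood above the average gene.

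The lists at the top of that ranking in replicate 1 hold genes of earlier stages, and their values were smaller without a few cells and in replicate 2, although the medians stayed above that of all genes, -0.38 and -0.43. The 13 germline identity and piRNA genes had a median of 0.75 in replicate 1, which was 0.11 without the 7 SPT-e over 5000 UMIs and -0.23 in replicate 2. HMG proteins and histone chaperones gave 0.75, 0.46 and 0.02 in the same order, ribosomal protein genes gave 0.53, 0.24 and 0.02, and DNA replication genes gave 0.40, -0.02 and 0.07. Counts at least 2-fold higher were 10 of 28 for the HMG list in replicate 1, 5 without those cells and 1 in replicate 2. For ribosomal protein genes they were 9 of 78, 2 without those cells and 0 in replicate 2.

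hmgb1b had 484 CPM in SPT-e of replicate 1, against 134 CPM in SPT-r, with 51.8% of its SPT-e UMIs in the 7 cells. In replicate 2 it had 305 CPM in SPT-e, against 284 CPM in SPT-r. mcm2 had 49.0% of its SPT-e UMIs in these cells, sycp3, a synaptonemal complex protein, had 47.0%, and piwil1, a piRNA-binding protein, had 38.7%, although the cells held 10.3% of all UMIs. The part that mixed droplets had in these values was not tested beyond leaving the cells out. Genes whose higher level did not turn on them were gtsf1, a piRNA pathway protein, with 1419.9 CPM in SPT-e, against 508 CPM in SPT-r, and 1559 CPM against 539 CPM in replicate 2, and chaf1a, the large subunit of a histone H3-H4 chaperone, with 1217 CPM in SPT-e, against 393 CPM in SPT-r, and 1797 CPM against 550.5 CPM in replicate 2. gtsf1 had 4.37% of its SPT-e UMIs in the 7 cells.

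Meiotic messengers were still present. sycp1, which forms the transverse filaments of the synaptonemal complex, had 2958 CPM in SPT-e, against 4150.1 CPM in SPT-r and 4153 CPM in SPC-II, that is 4.82 UMIs per SPT-e against 35.2 per SPT-r. Of 19 meiosis genes 3 were at least 2-fold higher and 2 were lower, and without the cells over 5000 UMIs none was higher and 3 were lower. Among 49 heat-shock and chaperone genes, 5 were higher and 4 lower, while 3 were higher and 9 lower without those cells. dnajb2 was higher in both replicates, with 213 CPM in SPT-e, against 63.1 CPM in SPT-r, and 222 CPM against 72.4 CPM in replicate 2.

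The annotation divided SPT-e into cluster 1 with 186 cells and cluster 2 with 240 cells. Cluster 1 had a median of 869 UMIs per cell, against 1896 UMIs in cluster 2, and in replicate 2 the medians were 909 and 1841. The clusters of replicate 2 were voted in the same way as its stages. When annotated cells were hidden and voted on, 95.7% of cluster 1 and 85% of cluster 2 came back. The median mitochondrial share of UMIs was 1.62% in cluster 1, against 0.993% in cluster 2. Of 4392 genes tested, 344 were at least 2-fold higher in cluster 1 (7.83%) and 1198 were at least 2-fold lower (27.3%), at a median of -0.25. The stage sum of cluster 1 held 181154 UMIs, against 512578 UMIs for cluster 2, so a count of 3 UMIs was worth 16.6 CPM in cluster 1 and 5.85 CPM in cluster 2. Of the genes past 2-fold, 193 that were higher and 648 that were lower were so in both replicates. The genes that made the clusters were among those compared, so these counts are a description.

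Several of the genes with the highest SPT-e levels relative to SPT-r were concentrated in cluster 1. tssk6 had 1242 CPM in cluster 1, against 70.2 CPM in cluster 2, a ratio of 17.7 (interval 12.4 to 25.9), and 7.70 in replicate 2. si:dkey-151m22.8 had 2782 CPM in cluster 1, against 179 CPM in cluster 2. The pimr genes together had 2709 of the 181154 UMIs of cluster 1, against 737 of the 512578 UMIs of cluster 2 (0.144%), and took 1.24% against 0.206% in replicate 2. Of the 8 largest folds toward cluster 1, 6 were pimr genes. pimr genes were 36 of the 5034 genes tested against SPT-r, and their number among the 4392 is not given here. The level filter used the mean of both clusters. Copies with few UMIs in cluster 2 thus passed it through cluster 1, which fixed their direction. pimr71 had 486 CPM in cluster 1, against 9.75 CPM in cluster 2, and pimr125 had 618 CPM against 19.5 CPM. pimr186 had 25 UMIs in cluster 1 and none in cluster 2, which is at least 23.6-fold higher at a floor of 3 UMIs per cluster. Cluster 2 also stood above SPT-r, since its pimr share of 0.144% compared with 0.0182% in SPT-r, and its tssk6 level of 70.2 CPM with 0.53 CPM. edrf1 behaved otherwise, with 1485 CPM in cluster 1, against 593 CPM in cluster 2, in replicate 1, but a ratio of 1.03 (0.91 to 1.17) in replicate 2. So did styk1b, with 999 CPM in cluster 1, against 435 CPM in cluster 2, but 439 against 435 CPM in replicate 2. In tssk6 and the pimr family the order was the same in both replicates, with voted clusters in replicate 2.

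All 8 genes with the largest fold toward cluster 2 were also measured in SPT-r, at 40.3 to 529.9 CPM. rag2, known as a partner of the recombinase that assembles antigen receptor genes, had 1 UMI in cluster 1 (5.52 CPM), against 155 UMIs in cluster 2 (302 CPM), and 377 UMIs in SPT-r. In replicate 2 rag2 had 23 UMIs in cluster 1, against 289 UMIs in cluster 2. dclre1c, the Artemis nuclease of DNA end joining, had no UMI in cluster 1, against 56 UMIs in cluster 2. ccnb3, cyclin B3, had 16.6 CPM in cluster 1 (3 UMIs), against 447 CPM in cluster 2 and 414 CPM in SPT-r. sinup had 2 UMIs in cluster 1, against 236 UMIs in cluster 2, and slc39a4, a zinc importer, had no UMI in cluster 1, against 61 UMIs in cluster 2. fbxo11b, si:dkeyp-22c6.1 and si:ch211-188i4.4 made up the 8. In replicate 1 these 8 genes, picked for this fold, were near the floor in cluster 1 but not in cluster 2 or SPT-r. In replicate 2 the 23 UMIs of rag2 in cluster 1 were above a floor of 3 UMIs.

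Some lists lay below the median of all genes in cluster 1 and others above it. Intraflagellar transport genes had a median log2 fold of -1.13 for cluster 1 over cluster 2, beside -0.25 for all genes, with 14 of 25 at least 2-fold lower in cluster 1, and -1.19 in replicate 2. Chromatin modifiers had a median of -0.92 (15 of 31 lower) and manchette genes -0.54 (11 of 25 lower). CFAP genes had a median of 0.23, with 1 of 33 lower and none higher, but -0.12 in replicate 2, and mitochondrially encoded genes had 0.71. Core and linker histones had a median of 0.52, with 4 of 14 higher and none lower, and 0.73 in replicate 2. e2f8, a repressor of cell cycle genes, had 33.1 CPM in cluster 1, against 649.7 CPM in cluster 2, and cetn4 had 1706 CPM in cluster 1, against 4031 CPM in cluster 2.

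Markers of other testis cells were few in SPT-e, and insl3 had the most UMIs of them in both replicates. Of 7 Leydig markers, 4 had a UMI in SPT-e of replicate 1, and the list took 0.00894% of the UMIs in SPT-e, against 0.00748% in SPT-r and 0.00332% in SPG-Aun. In replicate 2 the share was 0.0256% in SPT-e, against 0.0107% in SPT-r and 0.0329% in SPG-Aun. insl3, a Leydig cell hormone and the most abundant of them, had 0.134 UMIs per SPT-e, against 0.563 per SPT-r and 0.325 per SPG-Aun, and 0.334 against 0.954 and 2.59 in replicate 2. On the CPM scale its log2 fold over SPT-r was 0.29 in replicate 1 and 1.18 in replicate 2. The other Leydig markers had 0 to 3 UMIs in all SPT-e of replicate 1. Of 5 Sertoli markers, amh and krt18a.1 had 1 UMI each and fshr, gsdf and aldh1a2 had none. The immune marker ptprc had no UMI, coro1a had 30 UMIs and grap2b had 21. The immune list took 0.00793% of the UMIs in SPT-e, against 0.00594% in SPT-r, and 0.00333% against 0.00387% in replicate 2. Of 5 erythroid markers only hbaa2, an alpha-globin, was seen, with 19 UMIs in SPT-e. hbaa2 had 0.0446 UMIs per SPT-e, against 0.0315 per SPT-r, but 0.0379 against 0.0803 in replicate 2. The erythroid list took 0.00274% of the UMIs in SPT-e, against at most 0.000526% in the other stages, and 0.00265% against at most 0.000866% in replicate 2. The part of free RNA in the low-count genes named above, such as fos, nkd3l and mcm2, was not tested.

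Markers of earlier germ cells were low in count per cell. ddx4, a germ cell helicase highest in spermatogonia, had 0.286 UMIs per SPT-e, against 0.779 per SPT-r and 29.0 per SPG-Aun. nop56, of the nucleolus, had 0.0235 UMIs per SPT-e, against 7.14 per SPG-Aun. As a share of the RNA, ddx4 had 176 CPM in SPT-e, against 91.8 CPM in SPT-r, and 179 against 139 CPM in replicate 2. nop56 had 14.4 CPM (10 UMIs), against 5.83 CPM in SPT-r, and 15.4 against 15.2 CPM in replicate 2. The SPT-r marker pias4b had 1.81 UMIs per SPT-e, against 16.2 per SPT-r, and 1108 CPM against 1906 CPM. In replicate 2, pias4b had 738 CPM in SPT-e, against 1959 CPM in SPT-r.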

How the data were processed

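Testis cells were captured in 2 libraries with the 10x Genomics Chromium Single Cell 3' kit. Per the labels, the authors mapped the reads to danRer11 with Cell Ranger 7.2.0, whereas the matrix header names version 6.1.2. The deposited values are UMI counts per gene and cell. Stages were taken from the annotation that accompanies the paper, of which the copy used here covers 1999 cells of replicate 1 in alphabetical order of barcode, among 3018 cells with 200 to 7000 genes and at most 5% mitochondrial UMIs. Another 907 passing cells lay beyond its end, and 112 passing cells within its range had no stage. Gene names came from a table of identifiers and symbols, which named 29201 of 32520 identifiers, with symbols in lower case. No reference sequence was used and none is printed.

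Counts were summed per stage and scaled to CPM. Folds are log2 ratios of CPM with 5 CPM added, for genes with a mean of at least 20 CPM over the groups compared. With 1 library per annotated stage no test was run. Stages and clusters of replicate 2 were given by vote (15 neighbours, 30 principal components of log-normalised counts of 2000 variable genes). Doublets were called with Scrublet in scanpy and kept in the main values. In all, 76 cells (2.52%) of replicate 1 and 100 cells (1.96%) of replicate 2 were marked. Their weight in SPT-e was larger in replicate 1, where the marked SPT-e held 9.20% of the UMIs of the stage, against 1.15% in replicate 2. The fold code, but not the interval code, was tested on simulated data. Python 3.11.15, scanpy 1.11.5, scipy 1.17.1 and R 4.3.3 were used, with edgeR 4.0.16 (TMM) and DESeq2 1.42.0 for scaling factors alone.

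The genes named are the 3 stage markers, the 15 highest in SPT-e, the 15 with the largest fold above and the 10 with the largest fold below SPT-r that were at least 2-fold the same way in replicate 2, the 10 with the largest ratio of UMIs per cell, the 8 largest on each side between the clusters, and up to 4 highest and 4 most changed genes of each of 33 lists. The members and lists were chosen with earlier results of these data known. The alternatives tried are replicate 2, other cells, scalings, filters and added constants. A few genes that this rule picks are not reported here.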

Additional observations from a re-analysis of the deposited data

How the results depend on the processing

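No paired analysis was possible because all samples belong to 1 group, and leaving out a library was possible only by taking replicate 2 in place of replicate 1. Main values were 328 genes at least 2-fold higher and 976 lower in SPT-e than in SPT-r, 967 higher and 2919 lower than in the other 6 stages, 344 higher and 1198 lower in cluster 1 than in cluster 2, and 181 genes with more UMIs per cell. Counts that moved by more than 1.5 times against SPT-r were 539 higher and 1535 lower with cells thinned to 500 UMIs, 684 and 333 with DESeq2 size factors, 539 and 1927 for cluster 1 alone, 772 and 1901 with no filter beyond 1 UMI, 175 and 449 at a mean of at least 50 CPM, and 539 lower with 20 CPM added. Against the other stages they were 1110 lower with DESeq2 size factors, 1618 higher and 4597 lower with no filter, 1522 lower at 50 CPM and 1871 lower with 20 CPM added. Between the clusters they were 637 higher after thinning, and 188 higher and 609 lower at 50 CPM. Genes with more UMIs per cell were 48 with at least 100 UMIs. The counts at other filters differ since fewer or more genes were compared; for the other settings the cause was not tested. The UMIs and genes per cell stayed within 1.5 times under every alternative run.

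Of 132 named genes at least 2-fold from SPT-r, 13 changed sign under at least 1 of 16 settings, including replicate 2 without its cells over 5000 UMIs, a setting added after the data were seen. In replicate 2 the log2 folds were -0.039 for rpl9, -0.39 for banf1, -0.50 for hspa4, -0.058 for hmgb2b, -0.35 for rec8b and -0.090 for nasp. With the vote made without listed genes they were -0.47 for hspa4, -0.33 for rec8b and -0.035 for nasp. In replicate 2 without cells over 5000 UMIs they were -0.22 for rpl9, -0.095 for rps25, -0.14 for hmgb1b, -0.11 for cox5a, -0.44 for banf1, -0.60 for hspa4, -0.18 for hmgb2b, -0.56 for rec8b, -0.18 for smc1b and -0.21 for nasp. After thinning they were 0.039 for chd4b, -0.47 for slc39a4 and -0.53 for rec8b, and in cluster 1 alone -3.18 for slc39a4 and -1.60 for si:dkeyp-22c6.1. The cause was not tested. Depth limits single genes: 1 UMI is 1.44 CPM in SPT-e of replicate 1.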
